A study of Mus musculus with 12 samples.

Results

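Transcripts of the enkephalin and nociceptin systems were examined in the arcuate nucleus (ARC), the region at the base of the hypothalamus that governs reproduction, appetite and pituitary output. The 6 genes comprised 2 peptide precursors, Penk (proenkephalin) and Pnoc (prepronociceptin), and the 4 genes for opioid-family receptors, Oprm1 (mu), Oprd1 (delta), Oprk1 (kappa) and Oprl1 (the nociceptin receptor). They were taken by name from 16640 genes measured, and all 6 passed the filter on low values that left 15801 genes for testing. Penk was picked because of its pattern over the groups of these same libraries, so its values and fitted differences are given below as a description, with no p-value. Pnoc and the 4 receptors were chosen as the rest of the system and are given with their tests over all genes.

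Bulk RNA sequencing was performed on ARC dissected from 27-week-old female mice in 4 groups. Every animal carried loxP-flanked Esr1, the oestrogen receptor alpha gene. Control females (Esr1fl/fl) had no Cre, and mutant females (Esr1Nkx2-1Cre) carried a Cre recombinase under Nkx2-1, a gene of ventral forebrain progenitors, so that deletion reaches Nkx2-1-lineage cells within and beyond the ARC and leaves other cells of the dissected block intact. The groups held 3 control chow, 4 mutant chow, 2 control HFD and 3 mutant HFD libraries, where HFD is a high-fat diet given for 17 weeks. Each value is the deposited signal, an abundance already scaled by the authors for gene length and library on a scale near TPM, so levels of different genes can be set side by side, although the read depth behind a value is unknown.

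Opioid peptides are cut from large precursors at pairs of basic residues and act through receptors coupled to inhibitory Gi/o proteins, which lower cyclic AMP, open potassium channels and close calcium channels. Enkephalins act mainly on the delta and mu receptors and dynorphin on the kappa receptor. Nociceptin acts on its own receptor and hardly on the other three. In the ARC, opioid peptides restrain reproductive and feeding neurons, and dynorphin is known for its part in the pulse generator of gonadotropin release.

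The coding stretches of the peptides are shown to make plain what each precursor gene encodes. Penk (ENSMUSG00000045573, GRCm38 chromosome 4, 4133531 to 4138819, minus strand) holds 7 enkephalin pentapeptide sequences in a reading frame of 268 codons. Of these, 6 have the sequence of met-enkephalin and 1 that of leu-enkephalin. Pnoc (ENSMUSG00000045731, chromosome 14, 65400673 to 65425472, minus strand) encodes 1 copy of nociceptin in 187 codons. Each stretch below is from the GENCODE M21 transcript, 5′ to 3′, with the peptide codons in capitals and the flanking pair of codons on each side in lower case.
Penk copy 1: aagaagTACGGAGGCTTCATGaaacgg
Penk copy 2: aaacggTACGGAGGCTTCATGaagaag
Penk copy 3: aagaggTATGGCGGCTTCATGaagaag
Penk copy 4: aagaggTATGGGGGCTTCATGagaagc
Penk copy 5: aagcgcTACGGGGGCTTCATGagaagg
Penk copy 6: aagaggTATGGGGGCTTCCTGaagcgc
Penk copy 7: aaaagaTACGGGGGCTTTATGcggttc
Pnoc nociceptin: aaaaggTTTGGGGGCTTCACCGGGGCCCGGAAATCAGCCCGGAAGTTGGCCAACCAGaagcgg
Copy 6 is the leu-enkephalin. The 7 copies use 6 different 15-base sequences, and 5 of them, like nociceptin, are flanked by codons for a basic pair on both sides. Copies 4 and 7 lack the basic pair after the peptide. The 7 are therefore a count of sequences, and which peptides are cut out was not examined.

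The receptors are related genes, so their coding sequences were compared for stretches that could share reads. The longest exact run common to any pair was 25 bases, between Oprk1 (chromosome 1, 5588466 to 5606131, plus strand) and Oprl1 (chromosome 2, 181715016 to 181720985, plus strand).
Oprk1 and Oprl1: gactactacaacatgtttaccagca
All 6 receptor pairs shared the core of this run, gactactacaacatgtt, over at least 17 bases, and their aligned coding bases were 62.8% to 68.3% identical. No 31-base word, the length of Kallisto's default index words, was therefore common to 2 of these reading frames. Among all annotated transcripts, the share of such words also present in another gene was 0% for Oprl1, 0.229% for Oprk1, 0.451% for Oprd1 (chromosome 4, 132110726 to 132144486, minus strand), 0.957% for Oprm1 (chromosome 10, 6758506 to 7038198, plus strand) and 1.25% for Pnoc. It was 10.9% for Penk, all shared with A830012C17Rik, a non-coding gene on the opposite strand, and whether the libraries kept strand is not given in the sources used here. Oprm1 also overlaps Ipcef1 and Gm10945 on the opposite strand.

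Esr1 was examined first as the deleted gene. Its signal was 17.8, 7.29 and 19.8 in control chow and 6.05, 3.15, 1.93 and 1.65 in mutant chow, without overlap. It was 15.3 and 22.4 in control HFD and 10.7, 16.6 and 11.9 in the libraries labelled mutant HFD, which overlapped the controls. The fitted genotype difference in Esr1 was -1.93 ± 0.41 (SE) on chow and -0.49 ± 0.49 on HFD. These 3 libraries all lay above every mutant chow library. Esr1 thus did not set them apart from controls as the label would have it, and every direction drawn from them carries that limit.

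Among the precursors, Penk stood out. Its signal was 232, 340 and 319 in control chow, 659, 568, 938 and 847 in mutant chow, 181 and 244 in control HFD, and 296, 332 and 193 in the libraries labelled mutant HFD. All 4 mutant chow libraries lay above all 8 others, and the other 3 groups ran into one another. The lowest mutant chow value was 1.67 times the highest value elsewhere. Over the whole table, 73 of 15801 genes (0.462%) had mutant chow above all 8 other libraries, and nothing is read from this share for Penk, which was picked on the same pattern. In bulk tissue, a change in the number of Penk cells and a change in Penk RNA per cell cannot be told apart.

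**Figure D1:**
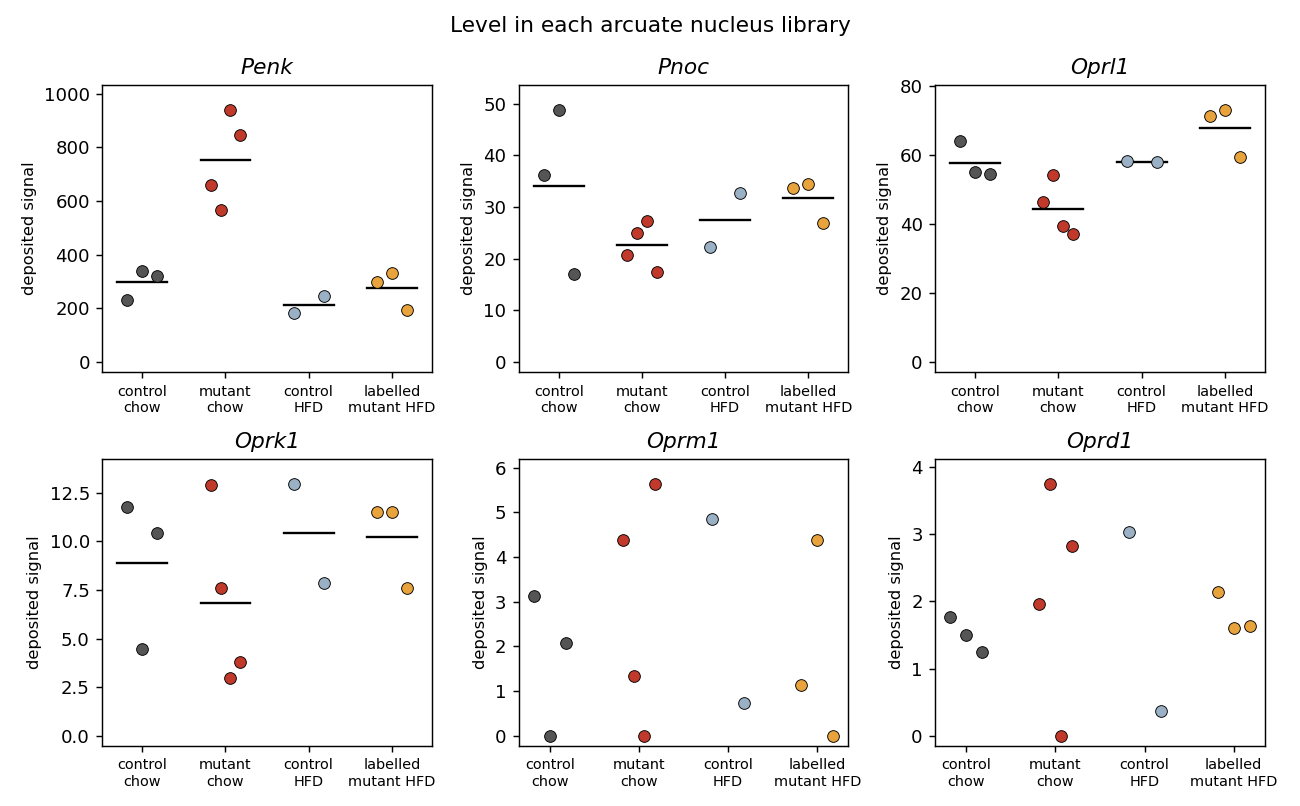
Deposited signal (vertical axes, from 0) of each gene in the 12 libraries, by group. Each point is 1 library and each bar a group mean, left out for Oprm1 and Oprd1, which are listed at 0 in some libraries; Penk is highest in the 4 mutant chow libraries (568 to 938) and Oprl1 is lowest there on this scale (37.1 to 54.2), though not once columns are rescaled to equal sums.

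On chow, Penk averaged 297 ± 57.1 for controls (n = 3, here and below ± SD over libraries) and 753 ± 170 for mutants (n = 4), a ratio of 2.54. On HFD it averaged 212 ± 44.6 for controls (n = 2) and 274 ± 72.4 for libraries labelled mutant (n = 3), the latter 36.4% of the mutant chow mean. As fitted differences of log2(signal + 1), mutants exceeded controls by 1.33 ± 0.24 (SE) on chow and by 0.34 ± 0.28 on HFD. The diet difference was -1.47 ± 0.24 in mutants and -0.48 ± 0.28 in controls, and the interaction, the HFD genotype difference minus that on chow, was -0.99 ± 0.37. On HFD the genotype difference rested on single libraries. It was 0.13 without control HFD replicate 1, 0.56 without control HFD replicate 2, 0.19 without the library labelled mutant HFD replicate 2 and 0.58 without replicate 3 of that group. The diet difference of controls was -0.26 without control HFD replicate 1. Within its own library, Penk ranked between 101 and 233 from the top in mutant chow and between 398 and 778 elsewhere.

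Pnoc was far lower and did not separate the groups on the deposited scale. Its signal was 36.2, 48.7 and 17.1 in control chow and 20.8, 24.9, 27.2 and 17.4 in mutant chow. It was 22.3 and 32.8 in control HFD and 33.6, 34.4 and 26.8 in the libraries labelled mutant HFD. Control chow alone spanned from the lowest to the highest value of all 12 libraries, and every pair of groups overlapped. After quantile normalisation the diet groups of mutants no longer overlapped, by a narrow margin. The lowest library labelled mutant HFD lay at 4.77 and the highest mutant chow library at 4.71 on the log2 scale. Under that scaling 8.11% of all genes did not overlap in this comparison. Mutants differed from controls on chow by a fitted -0.47 ± 0.31 (SE, limma, Benjamini-Hochberg adjusted p = 0.982; 95% interval -1.14 to 0.20), which does not show that the groups were alike. In mutants the diet difference was 0.48 ± 0.31 (SE, limma, Benjamini-Hochberg adjusted p = 0.924; 95% interval -0.19 to 1.15). The chow difference was -0.89 without control chow replicate 3 and -0.16 without control chow replicate 2.

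Penk exceeded Pnoc in all 12 libraries, with a ratio of 6.41 to 18.7 in control chow, 22.8 to 48.7 in mutant chow, 7.44 to 8.10 in control HFD and 7.19 to 9.65 in the libraries labelled mutant HFD. The mutant chow ratios lay above all others, which follows in part from the choice of Penk. The order Pomc, Penk, Pdyn, Pnoc, from highest to lowest, held in every library. Pomc encodes the precursor of beta-endorphin and melanocortins, and Pdyn that of dynorphin.

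The receptors were expressed at lower levels than Penk, and the nociceptin receptor gene was the highest of them in every library. Oprl1 was 64.1, 55.0 and 54.4 in control chow and 46.4, 54.2, 39.3 and 37.1 in mutant chow. It was 58.3 and 57.8 in control HFD and 71.4, 73.0 and 59.4 in the libraries labelled mutant HFD. On the deposited scale all 4 mutant chow libraries lay below all 8 others, a pattern held by 33 of 15801 genes (0.209%). The libraries labelled mutant HFD lay above mutant chow and above control HFD, and overlapped control chow.

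The separation of Oprl1 on chow was narrow. The highest mutant chow value, in replicate 2, was 0.998 of the lowest value elsewhere, in control chow replicate 3, and the genotype groups on chow overlapped once columns were rescaled to equal sums or quantile normalised. By rank within the library, mutant chow replicate 2 (3192 from the top) also fell among the controls (2621 to 3327). The separation of the diets in mutants was wider. It remained under both scalings, and by rank the libraries labelled mutant HFD (2275 to 2949) all stood above mutant chow (3192 to 4736).

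On chow, Oprl1 averaged 57.8 ± 5.43 for controls (SD, n = 3) and 44.3 ± 7.76 for mutants (n = 4). On HFD it averaged 58.1 ± 0.377 for controls (n = 2) and 67.9 ± 7.44 for libraries labelled mutant (n = 3). The fitted difference was -0.39 ± 0.17 on chow (SE, unadjusted p = 0.0369 and Benjamini-Hochberg adjusted p = 0.982 by limma) and 0.62 ± 0.17 for diet in mutants (SE, unadjusted p = 0.00288 and Benjamini-Hochberg adjusted p = 0.564 by limma; 95% interval 0.25 to 0.98). Neither passed the threshold of 0.05 over all genes. Over all alternatives tried, the adjusted p for diet in mutants ranged from 0.208 to 0.999, and the difference kept its sign, from 0.52 to 0.72. On HFD the genotype difference was 0.22 ± 0.20 (SE, limma, Benjamini-Hochberg adjusted p = 1), with groups that did not overlap as deposited or after quantile normalisation and overlapped after rescaling to equal sums. Of all genes, 7.27% were higher in mutants on HFD without overlap. The diet difference in controls was 0.01 ± 0.20 (SE, limma, Benjamini-Hochberg adjusted p = 1.00; 95% interval -0.42 to 0.44).

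**Figure D2:**
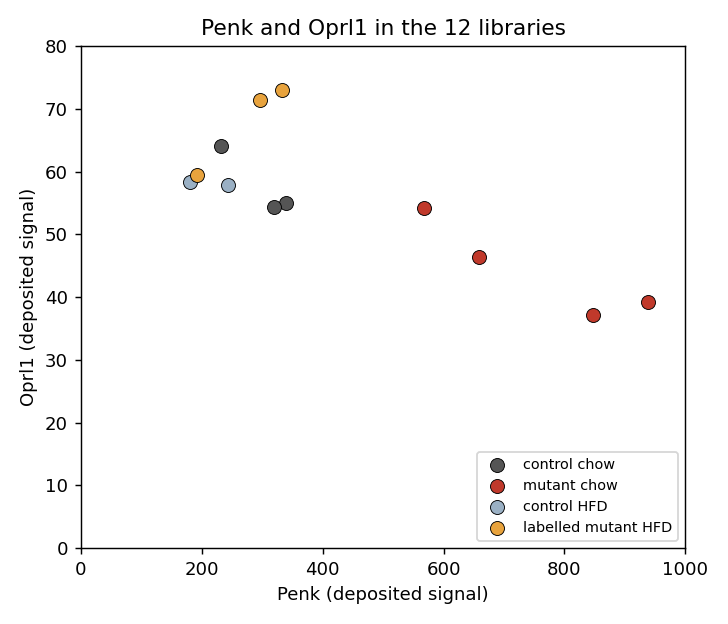
Penk (horizontal axis) against Oprl1 (vertical axis), both as deposited signal, with 1 point for each of the 12 libraries and colour for the group. On this scale the mutant chow libraries lie at the right and bottom (Penk 568 to 938, Oprl1 37.1 to 54.2). The other 8 lie at Penk 181 to 340 and Oprl1 54.4 to 73.0. Penk was picked for this pattern, and Oprl1 of the chow groups overlaps once columns are rescaled to equal sums.

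On the deposited scale, Penk and Oprl1 stood at opposite ends in mutant chow, where Penk was picked for its high values. Once columns were rescaled to equal sums, Oprl1 in control chow replicate 2 (43.8) lay below mutant chow replicates 1 (47.1) and 2 (55.4). The correlation of Penk with Oprl1 on the log2 scale was -0.78 over the 12 libraries, which follows in part from the choice of Penk. It was -0.35 for the deviations from group means. These points share groups and library scaling, and the samples fall into separate clusters for Penk, so the values are a description.

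Oprk1, the dynorphin receptor gene, was 11.8, 4.46 and 10.4 in control chow and 12.9, 7.60, 2.96 and 3.78 in mutant chow. It was 12.95 and 7.88 in control HFD and 11.5, 11.5 and 7.60 in the libraries labelled mutant HFD. Every pair of groups overlapped, and the 2 lowest values were both in mutant chow, the group that also held 1 of the 2 highest. The fitted difference was -0.43 ± 0.45 on chow (SE, limma, Benjamini-Hochberg adjusted p = 0.982; 95% interval -1.41 to 0.55) and 0.68 ± 0.45 for diet in mutants (SE, limma, Benjamini-Hochberg adjusted p = 0.924; 95% interval -0.30 to 1.66). Single libraries moved both values. The chow difference lay between -0.16, without mutant chow replicate 3, and -0.81, without control chow replicate 2. It was also -0.20 without control chow replicate 1, -0.28 without control chow replicate 3, -0.77 without mutant chow replicate 1 and -0.25 without mutant chow replicate 4. The diet difference lay between 0.41, without mutant chow replicate 3, and 1.02, without mutant chow replicate 1.

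Oprm1, the mu receptor gene, was 3.12, listed at 0 and 2.08 in control chow, and 4.39, 1.33, listed at 0 and 5.64 in mutant chow. It was 4.86 and 0.729 in control HFD. The libraries labelled mutant HFD gave 1.13, 4.38 and a listing at 0. Low and high values occurred in every group, so no group stood apart. Oprd1, the delta receptor gene, ranged from listed at 0 to 3.75, with both ends in mutant chow, where the values were 1.96, 3.75, listed at 0 and 2.83. Elsewhere it was 1.77, 1.503 and 1.25 in control chow, 3.03 and 0.368 in control HFD, and 2.15, 1.60 and 1.63 in the libraries labelled mutant HFD.

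For these lower receptors the intervals were wide. On chow the fitted genotype difference was 0.37 ± 0.78 for Oprm1 (SE, limma, Benjamini-Hochberg adjusted p = 0.991; 95% interval -1.32 to 2.07) and 0.12 ± 0.52 for Oprd1 (SE, limma, Benjamini-Hochberg adjusted p = 0.995; 95% interval -1.02 to 1.25). For diet in mutants it was -0.42 ± 0.78 for Oprm1 (95% interval -2.12 to 1.27) and 0.04 ± 0.52 for Oprd1 (95% interval -1.09 to 1.17). Differences of 1 in either direction lie within all 4 intervals. At these low levels, 1 on the log2(signal + 1) scale is more than a 2-fold change, so 2-fold changes lie within them too.

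The libraries in which Oprm1 was lowest were those with the most genes at 0. The table lists between 201 and 1768 genes at 0 per library, and the 3 libraries with the most, mutant chow replicate 3 (1768), the library labelled mutant HFD replicate 3 (1019) and control chow replicate 2 (980), were the 3 with Oprm1 at 0. The next, control HFD replicate 2 (917), held the lowest value above 0. Mutant chow replicate 3 also had the lowest Oprd1 and Oprk1. Of 3497 genes with a mean of at least 50, 15 are at 0 in some library. Oprm1 and Oprd1 had means of only 2.31 and 1.82, and what their values of 0 stand for was not tested. The part of these libraries in the receptor values was not tested. With these 4 libraries left out, the chow difference was 1.32 for Penk and -0.37 for Oprl1, and Penk gave -1.12 for diet in mutants, 0.79 between genotypes on HFD and -0.53 for the interaction. That fit held a single control HFD library, replicate 1, which had the lowest Penk signal of all (181). The HFD and interaction values of that fit therefore rest on that library.

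**Figure D3:**
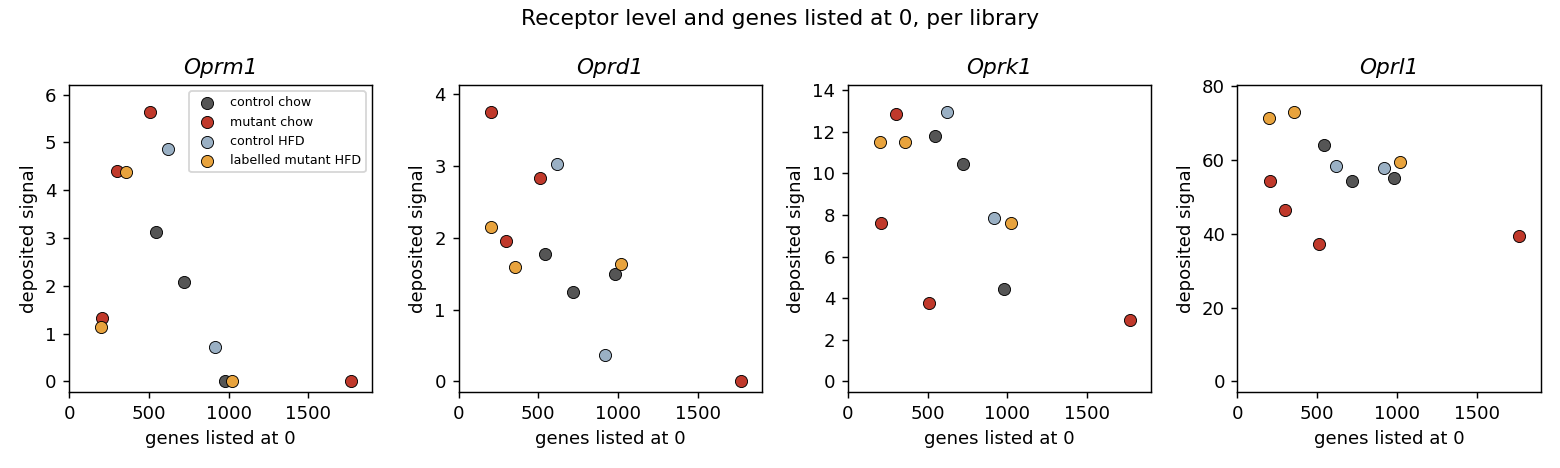
Deposited signal of each receptor gene (vertical axes) against the number of genes listed at 0 in the same library (horizontal axes), with 1 point per library and colour for the group. Oprm1 is at 0 in the 3 libraries with the most genes at 0 (980 to 1768), whereas Oprl1 stays between 37.1 and 73.0.

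The order of the receptors was the same in nearly every library. Oprl1 exceeded Oprk1 in all 12, by 3.61 to 13.3 times, and Oprk1 exceeded both Oprm1 and Oprd1 in 11 of 12, the exception being mutant chow replicate 4, where Oprm1 was above Oprk1. Oprm1 and Oprd1 could not be ordered, with Oprm1 higher in 7 libraries and both at 0 in 1. Oprl1 made up 70.7% to 93.0% of the summed signal of the 4 receptor genes, with a mean of 81.6% ± 6.65 (SD, n = 12). It also exceeded the gene of its own ligand precursor, Pnoc, in all 12 libraries, by 1.13 to 3.19 times.

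Over all comparisons, none of the 5 tested genes had a Benjamini-Hochberg adjusted p under 0.05 by limma. Among all genes the share called was 0.019% in the genotype contrast on chow and 0.019% in the diet contrast of mutants. It was 0.00633% in the genotype contrast on HFD and 0% in the diet contrast of controls and the interaction. At an unadjusted p under 0.05, 1 of the 5, Oprl1, was counted in the genotype contrast on chow (4.34% of all genes), the diet contrast of mutants (5.37%) and the interaction (3.44%). None of the 5 reached it in the genotype contrast on HFD (2.21%) or the diet contrast of controls (3.54%). Groups did not overlap for 1 of the 5, Oprl1, on chow (4.51% of all genes, 1.97% lower in mutants), between mutants on the 2 diets (7.99%, 3.11% higher on HFD) and between genotypes on HFD (15.7%). They did not overlap for 0 of the 5 between controls on the 2 diets (14.1%).

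**Figure D4:**
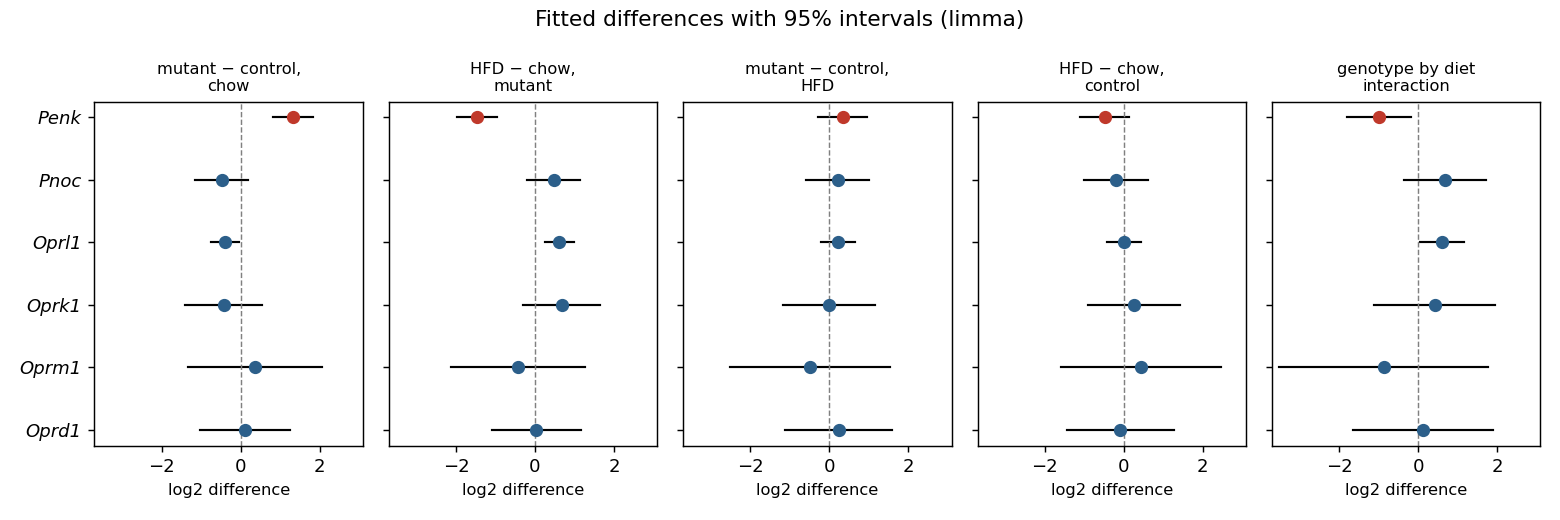
Fitted log2 differences (horizontal axes, limma) of the 6 genes in the 5 comparisons, with points for the estimate and lines for the 95% interval. Penk, in red, was chosen for its pattern over these same libraries, so its intervals are a description and are not to be read against 0. Among the other 5 genes, only intervals of Oprl1 leave out 0. These are on chow (-0.75 to -0.03), for diet in mutants (0.25 to 0.98) and for the interaction (0.04 to 1.17).

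The remaining genes of the pathway were taken from 8 lists by role, 51 genes in all, and all 51 were tested. None passed the adjusted threshold in any of the 5 comparisons, and few had an unadjusted p under 0.05. These were 3 of 51 on chow (4.34% of all genes), 2 in the diet contrast of mutants (5.37%), 1 in the genotype contrast on HFD (2.21%), 1 in the diet contrast of controls (3.54%) and 0 for the interaction (3.44%). The median log2 difference of the 51 was 0.07 on chow, where that of all genes was 0.01, and 0.04 for diet in mutants, where that of all genes was -0.02.

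Of the other precursors, Pdyn was 49.0 to 86.1 in control chow and 94.0 to 159 in mutant chow, without overlap (4.51% of all genes in either direction). Genotypes differed by a fitted 0.82 ± 0.24 on chow (SE, unadjusted p = 0.00444 and Benjamini-Hochberg adjusted p = 0.956 by limma). Libraries labelled mutant HFD had 78.3 to 118, which overlapped mutant chow, and the diet difference was -0.33 ± 0.24. Control HFD had 70.0 and 71.2, below all 3 libraries labelled mutant, with a genotype difference of 0.46 ± 0.28 (SE, unadjusted p = 0.128 and Benjamini-Hochberg adjusted p = 1 by limma). Of all genes, 7.27% were higher in that group without overlap. Pomc overlapped in every comparison, with a chow difference of 0.25 ± 0.44.

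Genes of prohormone processing numbered 6, of which 1 had groups without overlap on chow, where 4.51% of all genes did. This was Pcsk1, a convertase gene, at 31.7 to 34.8 in control chow and 34.9 to 53.2 in mutant chow, with a difference of 0.36 ± 0.22 (SE, unadjusted p = 0.125 and Benjamini-Hochberg adjusted p = 0.982 by limma). Enkephalin-degrading peptidases numbered 7, and the largest chow difference among them was in Npepps, a puromycin-sensitive aminopeptidase gene, at 0.40 ± 0.17 with overlapping groups. Mme, the gene of neprilysin, lay between 0.511 and 4.65 in all 12 libraries.

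**Figure D5:**
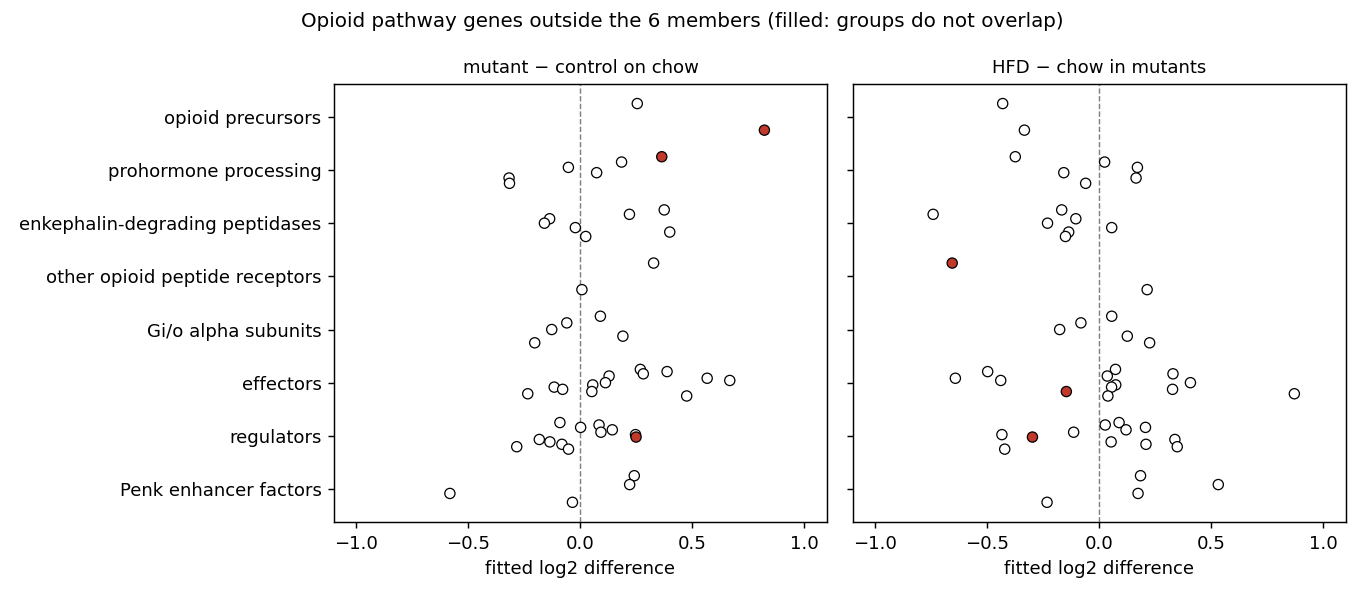
Fitted log2 differences (horizontal axes, limma) of the 51 pathway genes by list, for genotype on chow (left) and diet in mutants (right). Each point is 1 gene, filled in red where the groups do not overlap. This holds for 3 of 51 on chow (Pdyn, Pcsk1, Rgs4) and 3 of 51 for diet in mutants (Ogfr, Adcy6, Rgs4). Among all genes the share was 4.51% on chow and 7.99% for diet in mutants.

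Downstream of the receptors, the 5 genes for Gi/o alpha subunits and the 13 effector genes had 0 members without overlap on chow (4.51% of all genes). The largest chow differences were in Gnaz, at -0.20 ± 0.16, and in Cacna1b, which encodes the pore of the N-type calcium channel, at 0.67 ± 0.31. Of the 12 regulators, Rgs4, a gene of a protein that speeds the turning off of G proteins, was 107 to 114 in mutant chow, 82.3 to 101 in control chow. On HFD it was 75.9 to 86.6 in controls and 80.6 to 97.6 in libraries labelled mutant, so mutant chow lay above all others by a small margin. Of all genes, 0.462% had mutant chow above all others, and Rgs4 was named after its values were seen. Its chow difference was 0.25 ± 0.13 (SE, unadjusted p = 0.0891 and Benjamini-Hochberg adjusted p = 0.982 by limma). The regulator with the largest chow difference was Rgs19, at -0.28 ± 0.29.

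Of the 2 other receptors that bind opioid peptides, Ogfr was 32.9 to 82.9 in mutant chow and 25.3 to 28.5 in the libraries labelled mutant HFD. These did not overlap (7.99% of all genes in either direction). The diet difference was -0.66 ± 0.28 (SE, unadjusted p = 0.0340 and Benjamini-Hochberg adjusted p = 0.905 by limma). On chow the genotypes overlapped for Ogfr, at 31.8 to 39.9 in controls and 32.9 to 82.9 in mutants, with a difference of 0.33 ± 0.28 (SE, unadjusted p = 0.258 and Benjamini-Hochberg adjusted p = 0.982 by limma). Of 4 factors known to bind the Penk enhancer, Jun differed most on chow, at -0.58 ± 0.24 (SE, unadjusted p = 0.0328 and Benjamini-Hochberg adjusted p = 0.982 by limma). Its groups overlapped, at 33.4 to 63.3 in mutant chow and 55.1 to 96.2 in control chow, as did those of Fos and Creb1.

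Markers of other cell types were read beside Penk. Microglial markers (5 genes) summed to 288 to 331 in mutant chow, 164 to 270 in control chow, 175 to 211 in control HFD and 174 to 207 in the libraries labelled mutant HFD, so mutant chow was the highest group, as it was for Penk. Of these 5, 2 were higher in mutant chow than in control chow without overlap (Csf1r and Tmem119), where 4.51% of all genes did not overlap in either direction. In the libraries labelled mutant HFD, 3 were lower than in mutant chow without overlap (7.99% of all genes in either direction). Markers of the adjoining ventromedial nucleus (4 genes) had a mean log2 difference of 1.04 on chow and -0.01 for diet in mutants, with overlap. Their part in the Penk difference was not tested beyond using the ventromedial score as a covariate, which gave a difference of 1.57 for Penk on chow. Markers of the suprachiasmatic nucleus (4 genes) had a mean log2 difference of 0.96 on chow and 0.41 for diet in mutants, also with overlap. Among them, Avp ran from 77.3 to 3051 over the libraries. The part of suprachiasmatic tissue in the Penk difference was not tested.

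Markers of the striatum (4 genes), a nearby region rich in enkephalin neurons, summed to 41.5 to 62.0 in mutant chow and 40.1 to 93.9 in control chow, and Adora2a, the gene that defines those neurons, lay between 0 and 2.51 in all 12 libraries. Ppp1r1b, at 25.3 to 85.7, made up most of this sum. Per gene, the 4 had a mean log2 difference of 0.32 on chow and 0.18 for diet in mutants. Drd1, a dopamine receptor gene, was 15.4, 10.99, 3.98 and 5.52 in mutant chow and 4.29, 0.811 and 0.310 in control chow, and these overlapped. The part of striatal tissue in the Penk difference was not tested. Arcuate markers (8 genes) were present in every library, with Agrp at 65.9 to 787 and Pomc at 1009 to 4249. Of the 8, 1 did not overlap on chow (4.51% of all genes). This was Slc6a3, at 1.21 to 4.34 in mutant chow and 6.82 to 16.6 in control chow. For diet in mutants, 1 of the 8, Tac2, did not overlap (7.99% of all genes). It was 653 to 1026 in mutant chow and 344 to 601 in the libraries labelled mutant HFD. Oligodendrocyte markers (6 genes) had a mean log2 difference of 0.66 on chow and -0.63 for diet in mutants, with 0 of 6 free of overlap in either comparison.

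The genes most like Penk over the 12 libraries, by Pearson's r on the log2 scale, were Grp (0.93), Ccn3 (0.93), Fst (0.91), Csf3r (0.91) and Laptm5 (0.91). Grp encodes gastrin-releasing peptide, Ccn3 a matricellular protein and Fst follistatin, whereas Csf3r and Laptm5 are known mainly from myeloid and lymphoid cells. For the deviations from group means these values were 0.58, 0.65, 0.41, 0.62 and 0.58. Genes most like Oprl1 were Adamts2 (0.93), Dhdds (0.92), Krt77 (0.88), Terf2ip (0.87) and Atp5a1 (0.84), and those most like Pnoc were Mzt2 (0.92), Tspan7 (0.89), Ptdss1 (0.87), Nrsn2 (0.85) and Ass1 (0.84). Leading the lists of the other receptors were Pcdh19 for Oprk1 (0.93), Lyst for Oprm1 (0.93) and Lgi1 for Oprd1 (0.90). Each r is the highest of many over 12 points and is a description.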

How the data were processed

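Total RNA from dissected ARC was made into libraries with a NEBNext Ultra II RNA kit and sequenced on an Illumina NovaSeq. With Kallisto in its gene mode the authors assigned reads to mouse (mm10) transcripts, and with Sleuth they tested genes, and the deposited signal is their length- and library-scaled abundance per gene. Versions, annotation release and the scaling between libraries are not given in the sources used here. Column totals ran from 922172 to 1254999, so depth is unknown and no counting error is given. Symbols for 16633 of 16640 genes came from GENCODE M21.

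Values were transformed as log2(signal + 1), which shrinks differences of low genes, and genes at 1 or more in at least 2 libraries were kept (15801). All 12 libraries entered 1 linear model in limma 3.58.1 (R 4.3.3, trend option) with a mean for each group, which gave 5 contrasts, two-sided p-values and Benjamini-Hochberg adjustment over all genes kept (threshold 0.05). The fit was tested on simulated data. Labels give no origin of each library from a separate animal, so p-values measure the spread between these samples, which may be technical. Sequences were read from GENCODE M21 transcripts and aligned with Biopython 1.88.

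The 6 genes and the lists were chosen with earlier results of these data known. The rule named the 6 genes, Esr1, Nkx2-1, 8 pathway lists with the gene of largest absolute chow difference in each, and the 5 genes with highest Pearson r to each member among genes with a mean of at least 5. Other pathway genes named (Mme, Rgs4, Adcy6, Fos, Creb1) and single marker genes were chosen after their values were seen. Alternatives were other scalings, filters and pseudocounts, marker scores or a principal component as covariate, array weights and leaving out libraries. Of 12 libraries none held values identical to another.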

Additional observations from a re-analysis of the deposited data

Results flagged for a closer look

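The genotype difference in Oprl1 had opposite signs on the 2 diets. On chow all 4 mutant libraries lay below the 3 controls, and on HFD all 3 libraries labelled mutant lay above the 2 controls. The interaction was a log2 difference of 0.61 ± 0.26 (SE, by limma), with an unadjusted p = 0.0372 and a Benjamini-Hochberg adjusted p = 0.999, and did not pass the threshold over all genes. Under the alternatives it ran from 0.44 to 0.71, with adjusted p from 0.837 to 1.00. Rescaling the columns to equal sums removed the separation on both diets, and quantile normalisation removed that on chow and kept that on HFD. In the libraries labelled mutant HFD, Esr1 overlapped the controls and did not set them apart as the label would have it.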

How the results depend on the processing

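No paired analysis was possible because replicate numbers only follow the order of deposition. Of 734 values of the 6 genes under 25 alternatives, 47 changed sign, none of them for Penk. Many of the 734 could not change sign. Dropping the trend, changing the filter or leaving out a library outside the contrast leaves the fitted difference itself as it was. Penk was picked for its pattern, so nothing is read from its keeping sign. The count of calls among the other 5 genes stayed at 0 in all 124 cases. Rescaling to equal sums moved the median of all genes for diet in controls from -0.01 to 0.12 and for the interaction from -0.03 to -0.18. The ventromedial covariate, the fit without the 4 libraries with the most genes at 0 and the overlap under other scalings were chosen after seeing the data. Libraries at 0 limit Oprm1 and Oprd1, which a mean of at least 5 removed.

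Without the 4 libraries with the most genes at 0, Penk moved to -1.12 for diet in mutants, 0.79 on HFD and -0.53 for the interaction. Control HFD was then a single library, replicate 1, so values on HFD, for diet in controls and for the interaction rest on it. That fit turned Oprd1 to -0.40 for diet in mutants, -0.50 on HFD, 0.69 for diet in controls and -1.09 for the interaction, and Oprl1 to -0.016 for diet in controls. The neuron score turned Oprm1 to -0.061 and Oprd1 to -0.18 on chow, Oprd1 to -0.39 for diet in mutants, and Oprm1 to -0.47, Oprk1 to -0.36 and Oprl1 to -0.13 for diet in controls. The ventromedial score turned Oprm1 to -0.10 and Oprd1 to -0.46 on chow, Oprd1 to -0.17 on HFD and Oprl1 to -0.026 for diet in controls. A pseudocount of 0.1 turned Oprd1 to -0.37 on chow and the oligodendrocyte score to -0.19. Array weights turned Oprd1 to -0.36 for diet in mutants and -0.27 for the interaction, Oprk1 to 0.069 on HFD and Oprl1 to -0.0068 for diet in controls, and quantile normalisation turned Oprk1 to 0.023 on HFD. The cause of these changes was not tested.

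With single libraries left out, Penk ran from 1.16 to 1.46 on chow and from -1.62 to -1.23 for diet in mutants, 0.13 to 0.58 on HFD, -0.69 to -0.26 for diet in controls and -1.20 to -0.75 for the interaction. Oprk1 ran from -0.81 to -0.16 on chow and from 0.41 to 1.02 for diet in mutants. On chow, Oprm1 ran from -0.24 to 0.91 and Oprd1 from -0.15 to 0.60. For diet in mutants, Oprm1 ran from -1.05 to 0.16 and Oprd1 from -0.44 to 0.31. On HFD, Pnoc ran from -0.058 to 0.48, Oprm1 from -1.38 to 0.38, Oprd1 from -0.54 to 1.02 and Oprk1 from -0.34 to 0.31. For diet in controls, Pnoc ran from -0.62 to 0.12, Oprm1 from -0.43 to 1.33, Oprd1 from -0.87 to 0.69, Oprk1 from -0.12 to 0.59 and Oprl1 from -0.031 to 0.086. For the interaction, Oprm1 ran from -1.75 to 0.0098 and Oprd1 from -0.65 to 0.91.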
